A study of Mus musculus with 11 samples.

Results

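Epiblast-like cells (EpiLC) of the wild-type line DNMT_WT were compared with EpiLC of the wild-type line TET_WT, both at day 2 of differentiation, in 6 of the 11 libraries of the series. DNMT_WT is the parental line of a triple knockout of Dnmt1, Dnmt3a and Dnmt3b, and TET_WT is the parental line of a triple knockout of Tet1, Tet2 and Tet3. Neither line carries the knockout, and each was represented by 3 libraries numbered 1 to 3. Both lines came from mouse embryonic stem cells kept in 2i/Lif. The libraries were made by HMCP-seq, in which a kit captures fragments of genomic DNA that carry 5-hydroxymethylcytosine (5hmC). The other 5 libraries, TET_WT at day 1 (2 libraries) and as stem cells at day 0 (3 libraries), stand beside the results as values. They entered no main test, only an alternative fit of all 11 libraries. The filter of tiles and the classes of signal used the mean over all 11 libraries. The labels give no strain, clone, passage or culture date for either line. Line and any difference in culture or library preparation therefore cannot be told apart. Because the labels do not say whether replicates were separate cultures, p-values measure no spread beyond that between these libraries. Those of single genes, tiles and windows also use a trend of variance shared by others of like signal. They thus do not rest on the replicates of that gene, tile or window alone.

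5hmC is made from 5-methylcytosine by the TET enzymes, which oxidise the methyl group that the DNA methyltransferases place on cytosine, mostly at CpG. It is typically found in gene bodies and around enhancers, and is usually low at the starts of active CpG-rich genes, where there is little methylation to oxidise. EpiLC stand for the formative state between naive stem cells and primed epiblast, a stage at which methylation is rising across the genome.

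DNMT_WT replicates 1, 2 and 3 held 41395765, 16468363 and 29645990 reads, and TET_WT replicates held 28084698, 20223140 and 27381625. The median tile of 2 kb held 3 to 7 reads in DNMT_WT and 4 to 6 reads in TET_WT. The deposited values are log2 RPKM, which are relative to the reads of a library, so a difference in total 5hmC per cell is not visible in them. A tile without reads carries the value of 0.9 reads, which is -5.31, -3.98 and -4.83 in the DNMT_WT libraries and -4.75, -4.27 and -4.71 in the TET_WT libraries, so that low values depend on depth. Chi-square divided by degrees of freedom, over reads per gene, was 2.25 to 3.38 between replicates of a line at day 2 and 13.1 to 29.0 between the lines at day 2. Among the day 0 libraries of TET_WT, replicate 2 stood apart, at 30.4 and 31.1 from the other replicates, which were at 4.66 from each other, so day 0 levels are given by library. Capture of 5hmC is no measure of expression, so the EpiLC label cannot be checked against marker transcripts. The 5hmC values of the EpiLC marker genes Fgf5 (difference 0.09, adjusted p = 0.673) and Otx2 (difference -0.12, adjusted p = 0.441) did not pass the test between the lines.

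A gene's value is the mean log2 RPKM over the retained tiles in its span and 2 kb to either side. Of 19953 genes outside chromosome 14, 5182 were higher in DNMT_WT (26%) and 1244 were lower (6.23%), by limma with Benjamini-Hochberg adjusted p under 0.05 over all 20717 genes. The median difference, DNMT_WT minus TET_WT, was 0.11 outside chromosome 14. With each library centred on its own median tile, the median gene was 0.33 higher in DNMT_WT, and 8922 genes were higher and 327 lower. With each chromosome centred, 5963 were higher and 534 lower. The surplus of higher genes was thus present under each scaling tried, while its size was not fixed by these data. The 3 libraries of DNMT_WT lay above all 3 of TET_WT in 34% of these genes and below in 13.4%. Chromosome 14 differed from the rest of the genome and is described last.

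The largest gains outside chromosome 14 included genes of transcription factors and of a Polycomb subunit. Otx1, a homeobox factor of the forebrain (chromosome 11, 21994764 to 22001651, GRCm38), had 2.31, 2.52 and 2.38 log2 RPKM in DNMT_WT and 0.03, -0.22 and 0.32 in TET_WT. Its difference was 2.36 (SE 0.13, adjusted p = 7.1e-05). Cbx8, a chromodomain subunit of Polycomb complex PRC1 (chromosome 11, 119036303 to 119040913), had 2.17, 2.13 and 2.11 in DNMT_WT and -0.38, -0.19 and -0.10 in TET_WT. All 3 DNMT_WT libraries lay above every TET_WT library in both genes, which the rule that named them required.

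Atf4, the transcription factor of the integrated stress response (chromosome 15, 80255184 to 80257545), held 421, 175 and 255 reads in DNMT_WT and 35, 31 and 31 in TET_WT. Its difference was 2.99 (SE 0.14, adjusted p = 6.7e-05). Hoxb7, a patterning factor of the HoxB cluster, held 742, 354 and 656 reads in DNMT_WT and 181, 124 and 191 in TET_WT. The fewest reads in DNMT_WT, in its shallowest library, still exceeded the most in TET_WT in both genes.

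Sox3, an X-linked factor of neural progenitors, differed by 2.46 (SE 0.14) and Ubqln2, an X-linked ubiquilin that carries proteins to the proteasome, by 2.31 (SE 0.27). Fv1, a retrovirus restriction gene derived from a viral gag gene, differed by 2.26 (SE 0.20). Defa30, an alpha-defensin of Paneth cells in a copy-rich cluster, had 120, 31 and 108 reads in DNMT_WT and 0 in each TET_WT library. The fitted difference of such a gene depends on the value set for empty tiles, and none is given. Reads from near-identical defensin copies cannot be assigned with certainty. Under the wider gene span of 20 kb to either side, Otx1 (0.13, adjusted p = 0.202), Sox3 (0.25, adjusted p = 0.204), Ubqln2 (0.41, adjusted p = 0.105) and Fv1 (0.18, adjusted p = 0.113) lost their calls, and Fv1 also did on tiles of above-median signal (0.47, adjusted p = 0.125).

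Among the largest losses outside chromosome 14, most of the genes held few reads. Clec2f, a C-type lectin gene of the natural killer gene region on chromosome 6 (129008803 to 129021342), held 150, 61 and 94 reads in DNMT_WT and 392, 236 and 318 in TET_WT, a difference of -1.80 (SE 0.11, adjusted p = 8.9e-05). Lsm5, which encodes a ring protein of the U6 small nuclear ribonucleoprotein, held 13, 12 and 21 reads in DNMT_WT and 62, 63 and 80 in TET_WT. Ndufb4c, annotated as a member of the family of a complex I subunit, held 7, 1 and 7 reads in DNMT_WT and 48, 37 and 34 in TET_WT. In each of these 3 genes every DNMT_WT library lay below every TET_WT library, which the naming rule required.

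The other named losses were Krtap19-3, Krtap19-2 and Krtap4-2, which encode keratin-associated proteins of hair, Eif3j2, a translation initiation factor gene, and Fthl17-ps1, of the ferritin heavy chain-like family. Krtap4-2 differed by -1.91 and Fthl17-ps1 by -1.68. Krtap19-2 held 1, 1 and 4 reads in DNMT_WT and 25, 9 and 21 in TET_WT, and Eif3j2 held 10, 0 and 1 in DNMT_WT and 31, 16 and 20 in TET_WT. The DNMT_WT values of these 2 genes and of Krtap19-3 lie near the value set for empty tiles, so no difference is given for them. Krtap19-3 held 0, 5 and 1 reads in DNMT_WT and 34, 7 and 24 in TET_WT. It lost its call without any one of DNMT_WT replicates 1 and 3 or TET_WT replicates 1 and 3 (adjusted p 0.0757 to 0.102). The call was also lost without the variance trend (adjusted p = 0.0528) and with replicate number added to the fit (adjusted p = 0.064). Genes with near-identical copies, among them Ndufb4c, Eif3j2, Fthl17-ps1 and the Krtap genes, are uncertain, since reads may be split between copies.

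**Figure D1:**
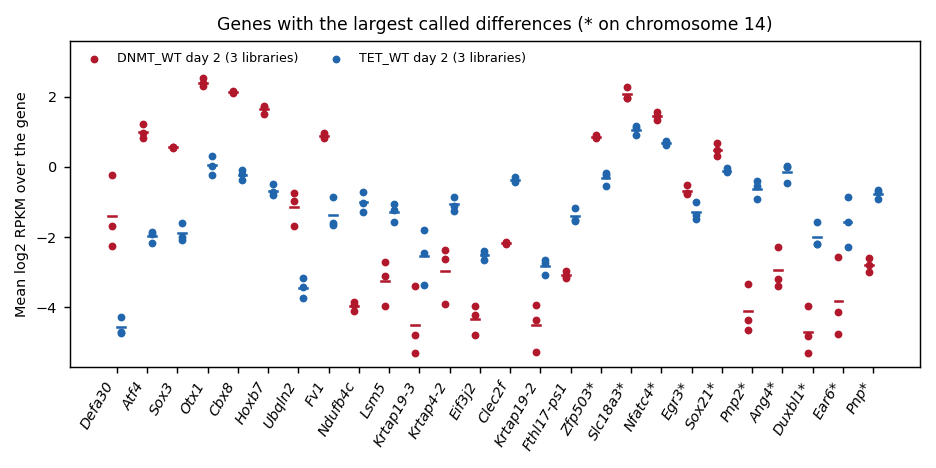
Mean log2 RPKM over the gene (y axis) in the 3 DNMT_WT libraries (red) and the 3 TET_WT libraries (blue) at day 2, for the genes with the largest called differences whose libraries do not overlap. Short bars are means, and asterisks mark genes on chromosome 14. The lowest points, such as those of Duxbl1 and Krtap19-3, lie at or near the value of an empty tile.

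The sequence before the annotated start was examined next, a step added after the data were seen. Each promoter in the RefSeq table for GRCm38.p6, 250 bases before to 50 bases after the start, was given its ratio of observed to expected CpG. The motif is CG, which reads the same on both strands, and 94.7% of the 32619 promoters on chromosomes 1 to 19 and X hold at least 1. A start tile is the 2 kb tile that holds the start. The 250 bases before the start are shown for 4 genes outside chromosome 14, 3 with many CG (in capitals) and a start tile higher in DNMT_WT, and Krtap4-2, with none and a start tile lower in DNMT_WT.
Atf4, chr15:80254934-80255183, plus strand: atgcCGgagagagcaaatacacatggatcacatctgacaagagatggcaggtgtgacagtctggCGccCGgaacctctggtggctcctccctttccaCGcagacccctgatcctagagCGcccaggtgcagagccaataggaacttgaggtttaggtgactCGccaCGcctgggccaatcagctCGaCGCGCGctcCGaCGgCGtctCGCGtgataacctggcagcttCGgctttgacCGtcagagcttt
Cbx8, chr11:119040914-119041163, minus strand: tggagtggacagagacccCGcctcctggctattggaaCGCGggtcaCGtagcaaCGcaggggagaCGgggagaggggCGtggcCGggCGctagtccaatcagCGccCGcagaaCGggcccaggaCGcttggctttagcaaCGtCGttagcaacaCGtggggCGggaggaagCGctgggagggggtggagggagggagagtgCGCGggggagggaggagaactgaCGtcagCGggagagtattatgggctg
Tob2, chr15:81858327-81858576, minus strand: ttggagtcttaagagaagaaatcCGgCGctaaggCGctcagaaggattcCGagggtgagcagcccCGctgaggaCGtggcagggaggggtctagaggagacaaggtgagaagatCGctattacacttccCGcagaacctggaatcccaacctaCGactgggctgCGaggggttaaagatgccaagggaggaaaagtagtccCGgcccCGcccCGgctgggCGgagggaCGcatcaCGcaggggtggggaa
Krtap4-2, chr11:99635085-99635334, minus strand: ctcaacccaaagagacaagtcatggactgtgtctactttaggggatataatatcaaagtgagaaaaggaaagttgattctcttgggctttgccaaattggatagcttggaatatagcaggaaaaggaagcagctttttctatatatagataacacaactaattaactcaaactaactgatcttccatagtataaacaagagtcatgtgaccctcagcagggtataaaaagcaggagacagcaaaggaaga

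The Atf4 stretch holds 18 CG, that of Cbx8 22 and that of Tob2 16. The Atf4 start tile held 259, 100 and 162 reads in DNMT_WT and 6, 3 and 0 in TET_WT. That of Cbx8 held 77, 22 and 38 reads in DNMT_WT and 5, 8 and 10 in TET_WT. That of Tob2, which encodes an antiproliferative protein that binds a deadenylase complex, held 676, 214 and 399 reads in DNMT_WT and 0, 3 and 4 in TET_WT. For Krtap4-2 the order was the other way, with 8, 1 and 5 reads in DNMT_WT and 13, 19 and 10 in TET_WT. These reads are not scaled to depth, and in the first 3 genes the shallowest DNMT_WT library still held more than any TET_WT library.

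Across the genome, the tiles at CpG-rich starts were higher in DNMT_WT. Over the 6348 start tiles outside chromosome 14 whose promoter ratio was over 0.75, the mean was -0.77, -0.70 and -0.82 log2 RPKM in DNMT_WT and -1.55, -1.47 and -1.53 in TET_WT. The difference was 0.75, beyond the SD between replicates of 0.06 in DNMT_WT and 0.04 in TET_WT (n = 3 each). The exact permutation test over the 6 libraries, two-sided, gave p = 0.1, the smallest value that 3 against 3 libraries can give. TET_WT had -2.02, -1.78 and -1.97 at day 0 and -1.60 and -2.06 at day 1, each below its day 2 libraries. These tiles took 0.621% to 0.633% of the reads in DNMT_WT and 0.403% to 0.418% in TET_WT.

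The size of the difference followed the CpG ratio of the promoter. It was 0.56 at ratios of 0.5 to 0.75 (4250 tiles), 0.07 at 0.25 to 0.5 (6088 tiles) and -0.06 under 0.25 (9824 tiles, libraries overlapping, exact permutation p = 0.5). The median share of G and C bases in the promoters rose with the ratio, from 46.3% under 0.25 to 66% over 0.75. A trend with CpG therefore cannot be told apart here from one with G and C content. Of the CpG-rich start tiles, 6300 were tested singly, of which 1050 were higher (16.7%) and 32 lower (0.508%), against 2.66% and 2.5% of the 1128189 tiles tested outside chromosome 14. The share higher was larger at ratios of 0.5 to 0.75, where 943 of 4204 were higher (22.4%) and 84 lower, so calls did not follow the ratio in order. With median centring the tiles outside chromosome 14 split into 60536 higher and 13685 lower, and with chromosome centring into 29328 and 12802. Of the CpG-poor start tiles, 422 of 9247 were higher (4.56%) and 230 lower (2.49%). Calls of single tiles depended on the fit, and 394 tiles outside chromosome 14 were higher and 346 lower without a variance trend, and 626 and 298 at equal depth. Along the gene, the difference at CpG-rich starts was 0.31 in the tile before and 0.39 in the tile after the start, and 0.11 at 20 kb on either side. Both lines still had their lowest mean at the start itself.

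**Figure D2:**
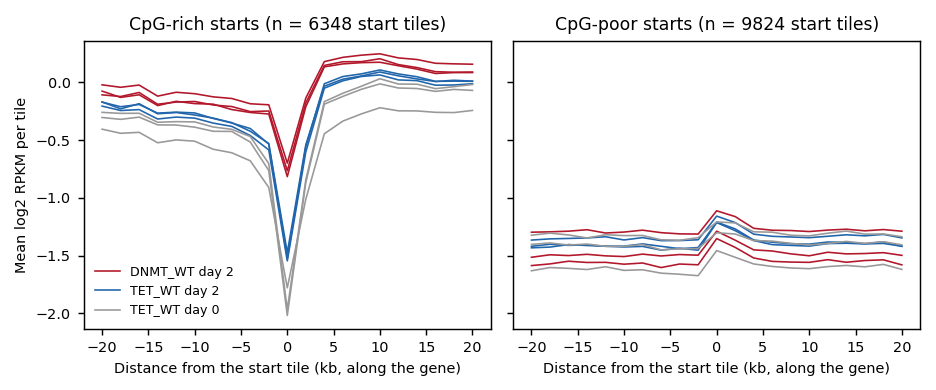
Mean log2 RPKM per tile (y axis) by distance from the start tile in kb along the gene (x axis), outside chromosome 14, at CpG-rich starts (left, ratio over 0.75) and CpG-poor starts (right, ratio under 0.25). Each line is 1 library of DNMT_WT at day 2 (red), TET_WT at day 2 (blue) or TET_WT at day 0 (grey). At CpG-rich starts all 3 DNMT_WT libraries lie above all TET_WT libraries, with means of -0.76 and -1.52 at the start tile, while at CpG-poor starts the libraries of the lines overlap.

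The share of genes called higher differed with the promoter and with gene length. Of 6154 genes outside chromosome 14 with a promoter ratio over 0.75, 2089 were higher and 265 lower, and of 3749 with a ratio under 0.25, 413 were higher and 227 lower. Among genes of 3 to 5 tiles 26.9% were higher, of 6 to 10 tiles 39.9%, of 11 to 20 tiles 30.2% and of 21 to 50 tiles 15.9%, whereas among the 928 genes of over 100 tiles 0.862% were higher and 23% lower. A gene's mean weighs its start more in a short gene than in a long one, and the part of this in the pattern was not tested. With the tiles at annotated starts and their neighbours left out, the median difference outside chromosome 14 was 0.06. In that setting 3256 genes were higher and 1286 lower. Genes left with fewer than 3 tiles dropped out of it.

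The 4 Hox clusters, homeobox genes that pattern the body axis and are classic Polycomb targets, were higher in DNMT_WT nearly throughout. Of the 39 genes measured, 38 were higher and 1 had no call, where 26% of all genes were higher and 6.23% lower. Their median difference was 1.21, against 0.11 over all genes outside chromosome 14. Neighbouring genes of a cluster can share tiles, so the 39 are not separate observations. The median gene had 1.46 in DNMT_WT and 0.13 in TET_WT in the HoxD cluster, 1.71 and 0.29 in HoxC, 1.78 and 0.50 in HoxB, and 2.27 and 1.08 in HoxA. Hoxd13, at the 5′ end of HoxD, had 1.48, 1.29 and 1.28 in DNMT_WT and -1.20, -0.88 and -0.49 in TET_WT. Hoxd1 was the member without a call, at 0.27 (adjusted p = 0.103). Of the homeobox genes of the Lhx, Dlx, Nkx, Irx and sine oculis-related families 34 of 38 were higher and 4 had no call (median 0.72), against the same 26% and 6.23% of all genes. These families were chosen after the data were seen.

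Most genes in lists that every cell uses were also higher. Of 81 genes of cytosolic ribosomal proteins, 61 were higher and 20 had no call, with a median difference of 0.91, where 26% of all genes were higher and 6.23% lower. Ribosomal protein genes have many processed copies, so reads in them are uncertain. Of 63 histone genes picked by their symbols, many of them replication-dependent and in dense clusters, 36 were higher and 27 had no call (median 0.97). In the housekeeping list 13 of 20 were higher (65%) and 7 had no call (median 0.56). With the starts left out, 6 were higher among the genes that kept at least 3 tiles. These genes are short, with a median of 6 tiles against 12 for all genes, and CpG-rich, with a median promoter ratio of 0.84 against 0.64. Rplp0, the P0 protein of the ribosomal stalk, had 0.56, 0.74 and 0.98 in DNMT_WT and -1.20, -0.93 and -1.19 in TET_WT. Actb differed by 0.87 (SE 0.17) and Gapdh by 0.78 (SE 0.14), while Hprt did not pass (-0.01, adjusted p = 0.963) and had either sign across the settings tried.

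In the neural list 17 of the 19 genes outside chromosome 14 were higher in DNMT_WT (89.5%, against 26% of all genes) and 2 had no call, with a median difference of 0.91. The neural genes are short (median 5 tiles) and CpG-rich (median promoter ratio 0.84). With the tiles at annotated starts and their neighbours left out, 6 neural genes were higher in place of 18, and over all lists 55 in place of 116, both with the members on chromosome 14 counted. Six3, a factor of eye and forebrain, had 1.78, 1.92 and 1.66 in DNMT_WT and -0.27, 0.20 and 0.04 in TET_WT, a difference of 1.80 (SE 0.13). Dlx1, of forebrain interneurons, differed by 1.56 (SE 0.08). Pax3, of the dorsal neural tube, did not pass (-0.12, adjusted p = 0.304). It was 0.23 with voom (adjusted p = 4e-06), so that its direction is not settled. Tubb3, a neuronal tubulin gene, was the other member without a call, at 0.25 (adjusted p = 0.0591).

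Of the genes listed for mesoderm and primitive streak 13 of 19 were higher (68.4%, against 26% of all genes). The other 6 had no call, and the list median was 0.61. Gsc, a homeobox gene of the organizer, had 1.68, 1.54 and 1.76 in DNMT_WT and 0.33, 0.27 and 0.20 in TET_WT. Cdx2, of posterior mesoderm and trophectoderm, differed by 1.12 (SE 0.11) and Hand2, of heart and limb, by 0.76 (SE 0.05). In the endoderm list 8 of 18 were higher (44.4%) and 1 was lower (median 0.30), against 26% and 6.23% of all genes. Foxa2, a pioneer factor of endoderm, differed by 1.32 (SE 0.14) and Pdx1, of pancreas, by 0.89 (SE 0.05). Afp, the fetal serum protein alpha-fetoprotein, was lower at -0.58 (SE 0.14, adjusted p = 0.0174), a call lost with median centring (-0.37, adjusted p = 0.0961) and without DNMT_WT replicate 1, TET_WT replicate 1 or TET_WT replicate 2 (adjusted p 0.0515 to 0.0589).

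Genes of naive pluripotency, the state left by EpiLC, were higher in 12 of 19 (63.2%, against 26% of all genes). The other 7 had no call, and the list median was 0.38. Tbx3 had 1.66, 1.56 and 1.51 in DNMT_WT and 0.55, 0.58 and 0.47 in TET_WT, and TET_WT had -3.13, -2.87 and -2.48 at day 0. Klf4 had 0.76, 0.84 and 0.66 in DNMT_WT and -0.55, -0.24 and -0.14 in TET_WT, and TET_WT had -2.57, -2.56 and -2.38 at day 0. Klf4 lost its call with the starts left out (0.28, adjusted p = 0.124). Sox2 and Pou5f1, core factors kept on in EpiLC, differed by 1.32 (SE 0.23) and 0.99 (SE 0.23), at low levels in both lines. Tfcp2l1 did not pass (-0.20, adjusted p = 0.295). Among genes of the formative and primed epiblast 9 of 17 were higher (52.9%) and 1 was lower, with a median of 0.28. Of all genes 26% were higher and 6.23% lower. Lefty2, an inhibitor of Nodal, differed by 0.54 (SE 0.09), and Cdh2, which encodes N-cadherin and spans 113 tiles, by -0.52 (SE 0.12).

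The hematopoietic list, the lineage named in the title of the series, was mixed, with 13 of 29 higher (44.8%, against 26% of all genes), 5 lower (against 6.23% of all genes) and 11 without a call (median 0.15). With median centring 15 were higher and with chromosome centring 14, and none was lower under either. With the starts left out, 5 of the genes still measured were higher and 4 lower. Lyl1, which encodes a transcription factor needed in blood stem cells, had 2.79, 2.96 and 2.73 in DNMT_WT and 1.34, 1.29 and 1.43 in TET_WT. Epor, the erythropoietin receptor, had 1.58, 1.59 and 1.24 in DNMT_WT and 0.51, 0.58 and 0.56 in TET_WT. Gfi1, a zinc finger repressor, differed by 0.90 (SE 0.10). The genes that were lower were Pf4 (-0.60), Ikzf1 (-0.45), Meis1 (-0.34), Kit (-0.30) and Erg (-0.29). Pf4, a platelet chemokine, had -0.09, -0.54 and -0.32 in DNMT_WT and 0.29, 0.09 and 0.47 in TET_WT, and lost its call at equal depth (-0.52, adjusted p = 0.117) and in 3 of the other settings. Without DNMT_WT replicate 3, TET_WT replicate 1 or TET_WT replicate 3, 1 gene of the list was lower in place of 5, without TET_WT replicate 2 there were 2, and without DNMT_WT replicate 1 there were 3.

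Of the other lists, 8 of 20 trophectoderm and extraembryonic genes were higher (40%) and 4 lower, against 26% and 6.23% of all genes. Their median was 0.18, with Ascl2 at 1.39 (SE 0.11) and Dab2 at -0.52 (SE 0.13). Dab2 lost its call without any 1 of the 3 TET_WT libraries (adjusted p 0.0543 to 0.0598) and with median centring (-0.30, adjusted p = 0.187). Imprinted genes were higher in 8 of 27 (29.6%) and lower in 2 (median 0.18), close to the 26% and 6.23% of all genes. Rtl1, the paternally expressed retrotransposon-like gene, had 1.57, 1.52 and 1.65 in DNMT_WT and 0.50, 0.75 and 0.59 in TET_WT, and Cdkn1c, a maternally expressed cell cycle inhibitor, differed by 1.06 (SE 0.13). Germline genes were higher in 1 of 19 and lower in 1 (median -0.02), with Fkbp6 at 0.53 (SE 0.09) and Asz1 at -0.58 (SE 0.16). The share higher was 5.26%, against 26% of all genes, and 10 of the 18 germline genes with a promoter entry had a ratio over 0.75. The germline genes are longer, with a median of 22 tiles against 12, and of all genes of 21 to 50 tiles 15.9% were higher. Fibroblast markers, which would mark feeder cells, were higher in 3 of 16 (18.8%) and lower in 3, against 26% and 6.23% of all genes. Their median was -0.17, with Twist1 at 1.15 (SE 0.20) and Lum at -0.69 (SE 0.19). Lum lost its call in 10 of the settings, among them tiles of above-median signal (-0.004, adjusted p = 0.986). Copy-variable families were higher in 2 of 18 (11.1%, against 26% of all genes) and lower in 1. Glo1, a gene with known copy differences between mouse strains, had 2.27, 2.18 and 2.17 in DNMT_WT and 1.23, 1.25 and 0.94 in TET_WT. The lists were chosen with earlier results of these data known.

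**Figure D3:**
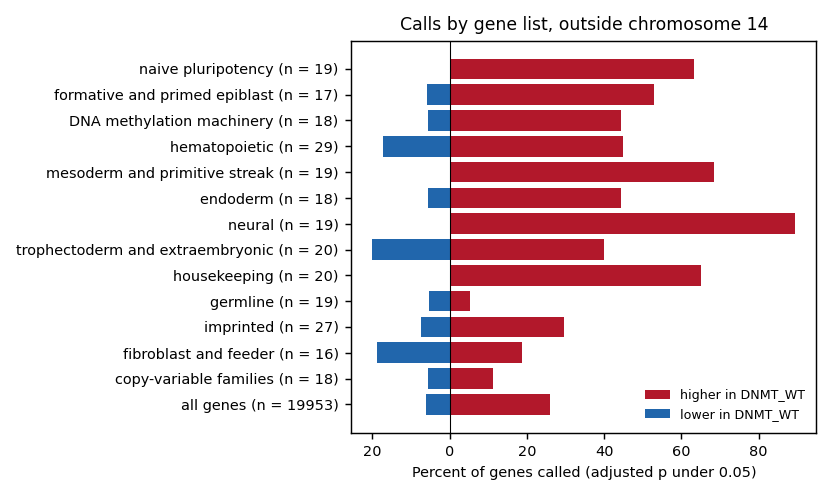
Percent of the measured genes of each list, and of all 19953 genes outside chromosome 14, that were called higher (red, right) or lower (blue, left) in DNMT_WT at an adjusted p under 0.05. The neural bar reaches 89.5% higher, against 26% of all genes.

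Among the enzymes that write and oxidise methylation, Dnmt1 and Uhrf1, which act in maintenance, were higher in DNMT_WT. Dnmt1, the maintenance methyltransferase, had 2.11, 2.00 and 2.10 in DNMT_WT and 1.50, 1.68 and 1.52 in TET_WT (difference 0.51, SE 0.07, adjusted p = 0.00121). Uhrf1, which brings Dnmt1 to replicated DNA, had 1.71, 1.83 and 1.63 in DNMT_WT and 1.25, 1.31 and 1.26 in TET_WT, and lost its call with all 11 libraries in one fit (0.45, adjusted p = 0.067). Of the methyltransferases that act de novo, Dnmt3b was higher by 0.26 (SE 0.07, adjusted p = 0.0216). Dnmt3b lost that call without DNMT_WT replicate 1 (adjusted p = 0.0703), TET_WT replicate 2 (0.0541) or TET_WT replicate 3 (0.0762), and with all 11 libraries in one fit (0.135). Dnmt3a had 0.16 (adjusted p = 0.0814). Their cofactor Dnmt3l had 0.01 (adjusted p = 0.949), with either sign across settings.

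Of the oxidases, Tet1 had 0.94, 0.91 and 0.91 in DNMT_WT and 0.43, 0.46 and 0.60 in TET_WT (difference 0.42, SE 0.07, adjusted p = 0.00411). Tet2 (0.33, adjusted p = 0.11) and Tet3 (0.13, adjusted p = 0.136) did not pass. In the DNA methylation machinery list 8 of 18 were higher (44.4%) and 1 was lower (median 0.31), against 26% and 6.23% of all genes. The lower one, Mbd2, a reader of methylated CpG, had -0.23 (adjusted p = 0.0478) and lost its call in 14 of the settings, among them any 1 of the 6 libraries left out.

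Over longer stretches the balance of calls was not settled. Of 2432 windows of 1 Mb outside chromosome 14, 304 were higher (12.5%) and 778 lower (32%), 92 of the latter on chromosome 6. With median centring 464 were higher and 49 lower, with quantile normalization 924 and 647, and with chromosome centring 410 and 531, and in a fit of all 11 libraries 151 and 141, so that the split of window calls depends on the scaling and the fit. Without DNMT_WT replicate 2, the shallowest library of that line, 305 were higher and 1543 lower. Among the windows with the largest gains, the one at 80 Mb of chromosome 10, with Abca7, Polr2e, Gpx4 and Stk11, had 1.17, 1.21 and 1.19 in DNMT_WT and 0.49, 0.64 and 0.59 in TET_WT. The one at 45 Mb of chromosome 7, with Irf3 and Nosip, had means of 1.26 in DNMT_WT and 0.73 in TET_WT. The largest losses were at 9 Mb of chromosome 18, with Fzd8 and Ccny, at means of -2.92 in DNMT_WT and -2.10 in TET_WT, and at 114 Mb of chromosome 6, with Atg7 and Vgll4, at -1.07 in DNMT_WT and -0.27 in TET_WT.

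By signal level, in the deposited scaling, tiles in the middle of the range were lower in DNMT_WT and the strongest class was slightly higher. The classes rest on the mean over all 11 libraries, most of them TET_WT, so they are not independent of the values compared. Median centring, not run for these classes, shifts all differences upward, so the sign of a class can depend on the scaling. In the fifth of 10 equal classes of mean signal outside chromosome 14, the mean was -2.41 in DNMT_WT and -2.10 in TET_WT, a difference of -0.31. By the ratio of summed reads, which does not depend on the value of empty tiles, that class was at -0.17 on the log2 scale. In the highest class it was 2.06 in DNMT_WT and 2.03 in TET_WT, a difference of 0.03, against 0.08 by summed reads. Both differences of means had exact permutation p = 0.1, the smallest possible. The highest class held 48.2% of the reads in DNMT_WT and 46.3% in TET_WT. Over all tiles in protein-coding genes the difference was -0.08 (exact permutation p = 0.4), in other annotated genes -0.14 (p = 0.3, exact permutation) and outside genes -0.15 (exact permutation p = 0.4). The libraries of the lines overlapped in each of these 3 classes, and the sign of the first and last turned positive with median centring (0.13 and 0.07).

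Single tiles differed to the point of presence against absence. Of the tiles retained, 350 held at most 1 read in each DNMT_WT library and at least 10 in each TET_WT library, and 181 held at least 10 in each DNMT_WT library and at most 1 in each TET_WT library. The read limits of this rule did not use the day 0 libraries of TET_WT. Those libraries did enter the mean that decided which tiles were retained, and most libraries in that mean are TET_WT. The read limits are also not scaled to depth. The 350 and the 181 are therefore not a like comparison. All 350 tiles of the first kind held at least 10 reads in some day 0 library and 304 did in all 3. Of the 181 of the second kind, 87 held at most 1 read in all 3 day 0 libraries and 140 at most 5, while 19 held at least 10 in some day 0 library. Of the first kind, 107 lay on chromosome 14 (30.6%, against 4.70% of all retained tiles) and 69 on chromosome 6. Of the second kind, 2 lay on each of these chromosomes, and 27 on chromosome 7, 29 on chromosome 8, 25 on chromosome 3 and 25 on chromosome 12. Of the 1183888 retained tiles, 69815 lay on chromosome 6, 63417 on chromosome 7, 60538 on chromosome 8, 73306 on chromosome 3 and 54036 on chromosome 12.

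Such tiles also came in runs. On chromosome 2, 20926001 to 20948000 (GRCm38) within Arhgap21 held 417, 206 and 321 reads in DNMT_WT and 0 in each TET_WT library. The TET_WT libraries of day 0 held 1, 0 and 0 reads there. On chromosome 3, 87460001 to 87482000 at Fcrl5, an Fc receptor-like gene of B cells, held 558, 171 and 409 reads in DNMT_WT and 0 in each TET_WT day 2 library. In the other direction, chromosome 18 from 9246001 to 9258000, which holds no annotated gene, had 0 reads in each DNMT_WT library and 303, 203 and 304 in TET_WT. On chromosome 4, 147220001 to 147228000 at Zfp978, a zinc finger gene of a repeated cluster, held 4, 2 and 7 reads in DNMT_WT and 607, 477 and 653 in TET_WT.

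Among the tiles with the largest differences was one at the start of Fv1 and Miip (chromosome 4, 147868001 to 147870000), with 285, 105 and 251 reads in DNMT_WT and 0 in each TET_WT library. A tile at Tfap2a, a factor of neural crest and surface ectoderm (chromosome 13, 40732001 to 40734000), had 288, 139 and 253 reads in DNMT_WT and 1, 2 and 1 in TET_WT. A tile at Hk2, a hexokinase gene (chromosome 6, 82772001 to 82774000), had 216, 87 and 136 in DNMT_WT and 1, 0 and 1 in TET_WT. On chromosome 17, 6840001 to 6842000, outside annotated genes, had 0 reads in each DNMT_WT library and 157, 92 and 136 in TET_WT. Whether the sequence itself is present in the DNA of both lines was not tested, since no input library was analysed here.

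Chromosome 14 was lower in DNMT_WT over its whole length. It took 3.55%, 3.57% and 3.54% of the reads on chromosomes 1 to 19 and X in DNMT_WT, and 5.47%, 5.41% and 5.44% in TET_WT. TET_WT had 5.43%, 5.11% and 5.45% at day 0 and 5.66% and 5.65% at day 1. The DNMT_WT share was thus 0.653 of the TET_WT share at day 2, below all 8 TET_WT libraries. The mean over its 55699 retained tiles was -2.07 ± 0.17 log2 RPKM in DNMT_WT and -1.41 ± 0.01 in TET_WT (SD, n = 3 each), a difference of -0.66 (exact permutation p = 0.1, two-sided, the smallest possible). Over the tiles of the other chromosomes it was -0.12 (exact permutation p = 0.4, libraries overlapping). The ratio of shares, on the log2 scale, was -0.62.

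Chromosome 6 came next and was the only other chromosome below -0.1 on that scale. It took 4.95%, 4.97% and 4.97% of the reads in DNMT_WT and 5.75%, 5.72% and 5.74% in TET_WT, a log2 ratio of -0.21. Chromosome 7 was highest, at 5.63%, 5.63% and 5.62% in DNMT_WT and 5.10%, 5.15% and 5.12% in TET_WT (log2 ratio 0.14). Chromosome 11 followed at 0.12. The share of the X chromosome, 1.12% to 1.13% in DNMT_WT and 1.11% to 1.14% in TET_WT, overlapped between the lines. In chromosomes 1 to 5, 7 to 9, 11 to 13 and 15 to 19 the libraries of the lines did not overlap either, but the log2 ratios were between -0.06 and 0.14.

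**Figure D4:**
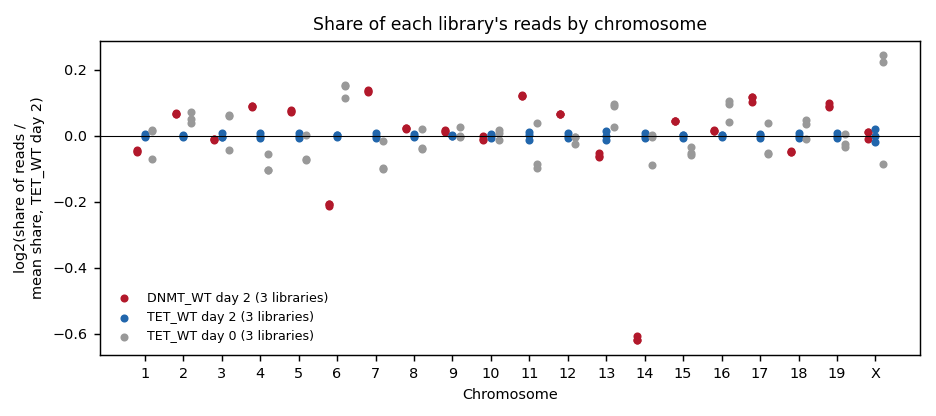
Share of each library's reads on a chromosome (x axis) as the log2 ratio to the mean share of the TET_WT day 2 libraries (y axis), for DNMT_WT at day 2 (red), TET_WT at day 2 (blue) and TET_WT at day 0 (grey). The 3 red points of chromosome 14 lie together near -0.62, and those of chromosome 6 near -0.21.

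The loss on chromosome 14 held from end to end. In blocks of 20 Mb the difference was -0.79 up to 20 Mb, -0.63 from 20 to 40 Mb, -0.68 from 40 to 60 Mb, -0.70 from 60 to 80 Mb, -0.48 from 80 to 100 Mb, -0.70 from 100 to 120 Mb and -0.64 beyond 120 Mb. The block of 80 to 100 Mb had the lowest level in both lines, -3.36 in DNMT_WT and -2.87 in TET_WT, nearest to the value of an empty tile. All 120 windows of 1 Mb lay below 0, from -1.22 to -0.15, and 95 were called lower (79.2%), while the rest had no call. The 120 had a median of -0.65, and 10 of 2432 windows elsewhere lay below that. At an unadjusted p under 0.05, 99 of the 120 passed. With chromosome 14 centred on itself, 28 of its windows were higher and 34 lower.

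**Figure D5:**
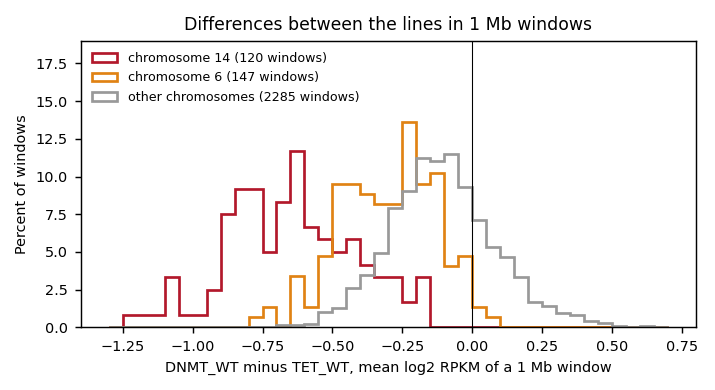
Percent of the 1 Mb windows (y axis) by their difference in mean log2 RPKM, DNMT_WT minus TET_WT (x axis), for chromosome 14 (red), chromosome 6 (orange) and the other chromosomes (grey). All 120 windows of chromosome 14 lie below 0, with a median of -0.65.

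The loss was present in each of the 10 signal classes and in genes and between them. At CpG-rich starts on chromosome 14 the lines overlapped, at a difference of 0.09, against 0.75 at such starts elsewhere. Relative to the other chromosomes these starts were thus lower too. By the ratio of summed reads, which does not depend on the value of empty tiles, chromosome 14 was lower relative to the other chromosomes by -0.48 to -0.56 in the 4 lowest of the 10 signal classes and by -0.63 to -0.69 in the other 6. The difference in mean log2 RPKM was -0.66 in protein-coding genes, -0.73 in other annotated genes and -0.64 outside genes, with no overlap of the libraries in any class. In protein-coding genes the 3 DNMT_WT libraries had -1.33, -1.14 and -1.30, and the 3 TET_WT libraries -0.59, -0.60 and -0.58.

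Of the 764 genes measured on chromosome 14, 466 were lower in DNMT_WT (61%) and 12 were higher (1.57%), with a median difference of -0.52. With the chromosome centred on itself 40 were lower and 145 higher, so that the direction of its genes rests on the level of the whole chromosome. Pnp, purine nucleoside phosphorylase of the purine salvage pathway (50944303 to 50953412), held 60, 32 and 54 reads in DNMT_WT and 136, 90 and 124 in TET_WT, a difference of -2.03 (SE 0.16, adjusted p = 0.000209). Its neighbour Pnp2, a second copy, held 18, 10 and 3 reads in DNMT_WT and 123, 123 and 148 in TET_WT (difference -3.49, SE 0.34, with the DNMT_WT values near that of empty tiles). Ang4, an angiogenin-family ribonuclease of the gut in the same region, held 55, 30 and 24 in DNMT_WT and 309, 189 and 312 in TET_WT (difference -2.80, SE 0.29).

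Ear6, an eosinophil-associated ribonuclease, held 10, 11 and 2 reads in DNMT_WT and 23, 29 and 54 in TET_WT and lost its call without DNMT_WT replicate 1 (adjusted p = 0.0556) or TET_WT replicate 3 (0.0605). Duxbl1, a double homeobox gene with close copies, held 0 reads in each DNMT_WT library and 57, 33 and 78 in TET_WT. All of these families have near-identical copies, so the reads of a single member are uncertain. Among list genes on the chromosome, Sall2, a zinc finger factor of the formative list, had 0.43, 0.13 and 0.29 in DNMT_WT and 0.80, 0.92 and 0.83 in TET_WT, and Htr2a, an imprinted serotonin receptor gene, differed by -1.20 (SE 0.16). Zic5 (-0.68, adjusted p = 0.0333) and Piwil2 (-0.51, adjusted p = 0.00412) were lower. With the chromosome centred on itself Sall2 was at 0.09 and Piwil2 at 0.15, neither called, and Zic5 at -0.03. Zic5 also lost its call without any 1 of the 3 TET_WT libraries (adjusted p 0.0635 to 0.101).

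Some genes of chromosome 14 ran against the chromosome. Zfp503, a zinc finger repressor of the developing striatum, had 0.90, 0.81 and 0.87 in DNMT_WT and -0.22, -0.16 and -0.55 in TET_WT, a difference of 1.17 (SE 0.11, adjusted p = 0.000398). Slc18a3, the vesicular acetylcholine transporter gene, had 2.29, 1.98 and 1.98 in DNMT_WT and 1.11, 0.92 and 1.16 in TET_WT. The others named by the rule were Nfatc4 (0.77), Egr3 (0.60) and Sox21 (0.58), and Fezf2, a forebrain factor chosen after its values were seen, was at 0.30. Over a span widened to 20 kb on either side, Zfp503 (-0.04), Slc18a3 (-0.14), Nfatc4 (-0.04), Egr3 (-0.11) and Sox21 (-0.32) all turned negative, and Sox21 was then called lower (adjusted p = 0.000824). Sox21 also lost its call with all 11 libraries in one fit (adjusted p = 0.062), at equal depth (0.0832) and with voom (0.0588). Egr3 lost its call with all 11 libraries (adjusted p = 0.0591), at equal depth (0.0718) and without DNMT_WT replicate 3, TET_WT replicate 1 or TET_WT replicate 2 (adjusted p 0.0612 to 0.0657). The DNMT_WT libraries lay above all TET_WT libraries in 2.49% of the genes of the chromosome and below them in 68.8%.

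Starts on chromosome 14 showed the same order by CpG ratio at a lower level. The difference at start tiles was 0.09 at ratios over 0.75 (211 tiles, libraries overlapping, exact permutation p = 0.3), -0.15 at 0.5 to 0.75 (163 tiles), -0.53 at 0.25 to 0.5 (243 tiles) and -0.59 under 0.25 (518 tiles). The median share of G and C bases rose with the ratio on this chromosome too, from 47.3% to 67%. Of the CpG-rich start tiles 13 of 205 were higher (6.34%) and 8 lower (3.9%), against 0.39% and 16.8% of the 55699 tiles tested on the chromosome. The 250 bases before the start of Zfp503 and Pnp are shown, one gene from each direction, with CG in capitals.
Zfp503, chr14:21989602-21989851, minus strand: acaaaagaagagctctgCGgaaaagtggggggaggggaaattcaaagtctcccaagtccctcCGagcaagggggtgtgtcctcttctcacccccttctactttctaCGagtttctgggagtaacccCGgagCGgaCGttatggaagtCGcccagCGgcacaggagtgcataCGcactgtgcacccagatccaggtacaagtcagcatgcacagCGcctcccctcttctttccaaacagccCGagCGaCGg
Pnp, chr14:50944053-50944302, plus strand: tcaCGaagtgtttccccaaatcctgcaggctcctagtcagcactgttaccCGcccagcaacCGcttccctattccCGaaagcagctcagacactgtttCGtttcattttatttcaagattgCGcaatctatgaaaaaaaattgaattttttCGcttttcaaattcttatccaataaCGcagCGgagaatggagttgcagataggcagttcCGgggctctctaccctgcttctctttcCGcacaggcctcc

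The Zfp503 stretch holds 13 CG, and its start tile held 30, 19 and 21 reads in DNMT_WT and 11, 6 and 7 in TET_WT. The Pnp stretch holds 11 CG, and its start tile held 4, 2 and 3 reads in DNMT_WT and 18, 17 and 12 in TET_WT. The promoter ratios were close, 0.747 and 0.729, while the tiles differed in opposite directions. The largest tile losses on the chromosome lay at 15850001 to 15852000, outside annotated genes, with 0 reads in each DNMT_WT library and 225, 167 and 253 in TET_WT, and at 16802001 to 16804000 in Rarb, a retinoic acid receptor gene, with 0 reads in each DNMT_WT library and 179, 121 and 122 in TET_WT. The copy number of chromosome 14 in either line cannot be told apart from its 5hmC in these libraries and was not tested.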

How the data were processed

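HMCP-seq libraries were made from 10 ng of DNA fragmented to 150 bp, per the labels' protocols. Reads were processed with Trim Galore 0.6.5, cutadapt 2.3 and Bowtie2 2.4.1 on GRCm38, per the submitters' processing notes. The authors deposited log2 RPKM values for 1362779 tiles of 2 kb in 11 libraries, and empty tiles hold the value of 0.9 reads. Whole reads were recovered from these values (99.9984% of them within 0.1% of a whole number).

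Of 1316897 tiles on chromosomes 1 to 19 and X, the lowest 10% and highest 0.1% by mean over all 11 libraries were left out. This left 1183888. Genes (spans plus 2 kb, at least 3 tiles) and windows of 1 Mb (at least 100 tiles) are means over tiles. limma 3.58.1 (R 4.3.3, moderated with a variance trend) compared 3 with 3 libraries, with Benjamini-Hochberg adjustment over all genes, tiles or windows and a threshold of 0.05. Single values had exact permutation tests, two-sided, with a smallest p of 0.1. The scripts were tested on simulated data. Alternatives were other scalings and filters, a replicate block, voom, equal depth, other spans and leaving out each library.

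The text names the 8 largest called, non-overlapping differences each way outside chromosome 14 and 5 each way on it, 3 members of each list by p and opposite sign, and the Tet and Dnmt genes. Further list members serve as examples. The members and lists were chosen with earlier results of these data known. Families, promoter classes, gene length, near-empty tiles and 20 Mb blocks were added after the data were seen. RefSeq promoters (GRCm38.p6) matched 16601 of 20717 genes.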

Additional observations from a re-analysis of the deposited data

How the results depend on the processing

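The depth of 16468363 to 41395765 reads left a median of 3 to 7 reads per tile, so single tiles are less certain than genes or windows. Of the 59 called among the 67 named genes, 37 kept the call under every alternative run for them. With all 11 libraries in one fit, 3571 genes, 30883 tiles and 292 windows (151 higher, 141 lower) were called outside chromosome 14. Median centring gave 6162 tiles on chromosome 14 and 513 windows outside it, quantile normalization 12358 tiles outside and 3068 on it, and chromosome centring 185 genes, 2719 tiles and 62 windows on it. Without a variance trend 740 tiles outside and 161 on it were called, and at equal depth 924 and 222 tiles and 1697 windows outside. With voom, 10677 genes and 1916 windows were called outside it. With starts left out, 80 list genes were called in place of 143 (chosen after seeing the data), and genes left with fewer than 3 tiles were not measured. Of the 59 called named genes, 31 kept the call in that setting, 3 lost it, 1 changed sign and the rest were not measured. Near-empty tiles numbered 149 and 59 at a minimum of 20 reads. The chromosome 14 difference was -0.44 with median centring, -0.51 with quantile normalization and -0.82 in tiles of above-median signal. In protein-coding genes the difference was 0.13, 0.037 and 0.069 with median centring, quantile normalization and read shares, and outside genes 0.067 and 0.017 with the first and second of these. At CpG-rich starts it was 0.97 with median centring and 0.62 by read shares. The cause of these changes was not tested.

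Leaving out 1 library gave 4644 to 5688 genes, 32459 to 54817 tiles and 851 to 1848 windows outside chromosome 14, and 405 to 478 genes, 5764 to 9354 tiles and 91 to 120 windows on it. The count of tiles fell to 32459, 38579 and 34258 outside chromosome 14 and to 5764, 6502 and 5951 on it without TET_WT replicates 1, 2 and 3, and that of windows outside was 1848 without DNMT_WT replicate 2. Leaving out 1 library gave 111 to 134 list genes, 0.72 to 0.78 at CpG-rich starts, -0.75 to -0.59 for chromosome 14, -0.13 to -0.05 in protein-coding genes and -0.25 to -0.07 outside genes. Hprt was 0.20 with median centring, 0.16 with quantile normalization, 0.066 with chromosome centring, 0.16 over the wider span, and 0.089, 0.0060 and 0.0080 without DNMT_WT replicates 1 and 2 or TET_WT replicate 3. Pax3 was 0.090, 0.035 and 0.23 with median centring, chromosome centring and voom, Tbx5 0.078 and 0.30 with median centring and voom, and Tfcp2l1 0.016 with median centring. With chromosome centring Piwil2 was 0.15 and Sall2 0.088. Over the wider span Egr3 was -0.11, Nfatc4 -0.037, Slc18a3 -0.14, Sox21 -0.32 and Zfp503 -0.045. With starts left out Nfatc4 was -0.040 and Dnmt3l -0.076, and Dnmt3l was -0.070, -0.0088 and -0.0106 without DNMT_WT replicate 3, TET_WT replicate 1 or TET_WT replicate 2, against 0.072 without DNMT_WT replicate 1.

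Replicate numbers did not pair the libraries: deviations of same-numbered libraries correlated at 0.0097, 0.0675 and 0.0148, and not every library correlated best with its own number. With the replicate block, 5733 genes were called outside chromosome 14 and 460 on it, 56346 and 9367 tiles, 1049 and 99 windows, and 135 list genes. Of the named genes called, Krtap19-3 (adjusted p = 0.064) and Mbd2 (0.0836) lost the call under the block.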
